A study of Mus musculus with 2 samples.

Results

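The machinery that brings new proteins to the endoplasmic reticulum (ER), moves them across its membrane and folds them was examined in ribosome footprints from neonatal mouse brain. It was represented by 42 genes, chosen by name from a list of known components and found by gene symbol among the 45578 genes of the deposited table. For a gene with several transcripts, the one with the largest summed footprint count was used. All 42 were present, and 32 of them reached a mean of 10 counts over the libraries, the minimum for a comparison between libraries. The other 10 are described by their counts.

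The samples were 2 biological replicates of 1 group, brain of heterozygous mice of the Taiwanese spinal muscular atrophy line at postnatal day 5 on a congenic FVB background, labelled as controls. Every sample carried the genotype Smn+/-; SMN2tg/0, that is, a single functional copy of mouse Smn together with the human SMN2 transgene. The labels do not give the promoter behind the transgene's expression, and do not say whether the replicates came from separate animals or pools, so differences between them may be technical. RiboLace captures ribosomes engaged in translation on beads that carry a puromycin analogue, and the fragments protected by those ribosomes, selected at 25 to 35 nucleotides, were sequenced.

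Proteins destined for secretion, for membranes or for the ER itself begin with a signal that the signal recognition particle binds as it leaves the ribosome. The particle docks on its receptor, and the ribosome is handed to the Sec61 channel, where signal peptidase removes the signal and oligosaccharyltransferase attaches sugar chains. Inside the ER, Hsp70 and Hsp90 chaperones, lectins that bind the sugar chains, and disulfide isomerases fold the product. Neurons use this route for receptors, channels, adhesion molecules and neuropeptides, and when unfolded proteins accumulate, ATF6 and other factors raise transcription of the folding genes.

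The promoters of the folding genes are shown first. Promoter sequence was not used to choose the genes. The motif searched was, however, already known for genes of the ER stress response, so matches in folding genes are not independent support. The ER stress element, which NF-Y and ATF6 are known to bind, was searched as CCAAT, 9 bases of any kind and CCACG on both strands of RefSeq windows from 250 bases before to 50 after each gene's start (build GRCm38.p6). Of the 42 genes, 34 had a window, with Ero1l found under its newer symbol Ero1a, and 5 of the 34 held the element, or 14.7%, against 0.137% of the 27025 gene symbols with a window. All 5 were folding genes, of which 11 had a window, and none of the 23 targeting, translocation, signal peptidase or glycosylation genes with a window held it. The matched sites follow, read in the direction of the motif, with the fixed letters in capitals and the spacer in lower case.
Hspa5, chr2:34772025-34772043: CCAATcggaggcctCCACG
Calr, chr8:84847075-84847093: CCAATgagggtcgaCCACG
Canx, chr11:50325800-50325818: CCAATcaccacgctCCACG
Pdia6, chr12:17266491-17266509: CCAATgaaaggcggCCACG
Hsp90b1, chr10:86705638-86705656: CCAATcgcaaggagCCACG
Hsp90b1, chr10:86705533-86705551: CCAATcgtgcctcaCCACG
The site of Hspa5 began 65 bases upstream of the gene's start, that of Pdia6 98 bases, that of Canx 145 bases and that of Calr 162 bases, while those of Hsp90b1 began 212 and 107 bases upstream. The site of Calr and the nearer one of Hsp90b1 lay on the strand opposite to the gene. A second form of the element, ATTGG, 1 base of any kind and CCACG, was chosen after the data were seen and searched on both strands. It shares CCACG with the first form, and its ATTGG is CCAAT read on the other strand. It occurred in 1 of the 34 genes, Dnajb11, just inside the transcribed part, and in 0.0444% of all symbols. A match describes letters in this window and is not a measured binding site.

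The 250 bases before the start of Hspa5 (chr2:34771840-34772089, plus strand, GRCm38.p6) show the element in its setting, with its fixed letters in capitals near the 3′ end.
Hspa5: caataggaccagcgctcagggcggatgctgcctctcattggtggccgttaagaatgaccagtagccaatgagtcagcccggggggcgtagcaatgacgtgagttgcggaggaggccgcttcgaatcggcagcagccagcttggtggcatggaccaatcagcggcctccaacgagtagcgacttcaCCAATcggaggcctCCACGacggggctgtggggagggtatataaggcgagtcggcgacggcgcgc

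Replicate 1 held 343552 counts at the gene level and replicate 2 held 120282, so 1 count was worth 2.71 CPM (the count divided by the TMM-scaled library size, per 1000000) in replicate 1 and 8.93 CPM in replicate 2, and values of replicate 2 carry the larger counting error. The 6 neuronal markers fixed for the tissue check all had counts in both libraries, 2158 and 765 in sum, as did the 5 astrocyte and radial glia markers, with 644 and 241. Of secretory tissues that would load the ER heavily, the 3 pancreas markers were at 0 in both libraries, the 3 liver markers had 0 counts and 1 count, and the plasma cell markers Jchain, Igkc and Mzb1 were at 0, while Sdc1, which other cells also express, had 12 and 2. The 5 choroid plexus and meningeal markers had 558 and 232 counts, and the 3 erythroid markers had 700 and 230. The oligodendrocyte lineage markers had 180 and 63 counts, those of microglia 59 and 17, and those of endothelium 41 and 17. The part of these cells in the levels below was not tested. In whole brain, more cells of a type and more RNA per cell cannot be told apart.

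The 42 genes together held 1860 of the gene counts in replicate 1 and 592 in replicate 2. Their share of all gene counts was 0.541% in the deeper library, replicate 1, with a 95% Wilson interval from 0.517 to 0.567, and 0.492% (0.454 to 0.533) in replicate 2. The mean share was 0.517% ± 0.0348 (SD, n = 2). The overlap of these intervals is not a test, and the difference between the shares was not tested. Like all intervals here, they cover counting error only, since amplified copies of a fragment were not told apart. The 12 folding genes held 54.7% of the counts of the 42 in replicate 1 and 54.6% in replicate 2. Calr, Canx, Hsp90b1, Pdia3 and Hspa5 alone held 42.6% in each library. The lectin chaperones Calr and Canx took the largest part of any functional group, 21.8% and 23.6%. Oligosaccharyltransferase and the lumenal chaperones were tied in replicate 1, each with 316 counts or 17.0%. In replicate 2 they took 18.2% and 15.03%. Oxidative folding took 15.9% in each library. The SRP receptor took the smallest part, 1.34% and 2.196%.

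Levels of different genes are compared as coding density, the CPM of a gene per kilobase of its coding sequence. Over the 32 genes past the minimum the median coding density was 112 CPM per kb in replicate 1 and 114 in replicate 2, and the median of the genes' means was 117. Over the 4294 protein-coding genes past the same minimum with a coding length it was 62.3 CPM per kb. Of the 32 genes, 24 lay above that median and 10 lay above 143 CPM per kb, the upper quartile of coding genes. Their median coding length, 1473 nucleotides, was near the 1398 nucleotides of all these coding genes. These medians leave out members with few counts, so they describe the better covered part of the list.

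**Figure D1:**
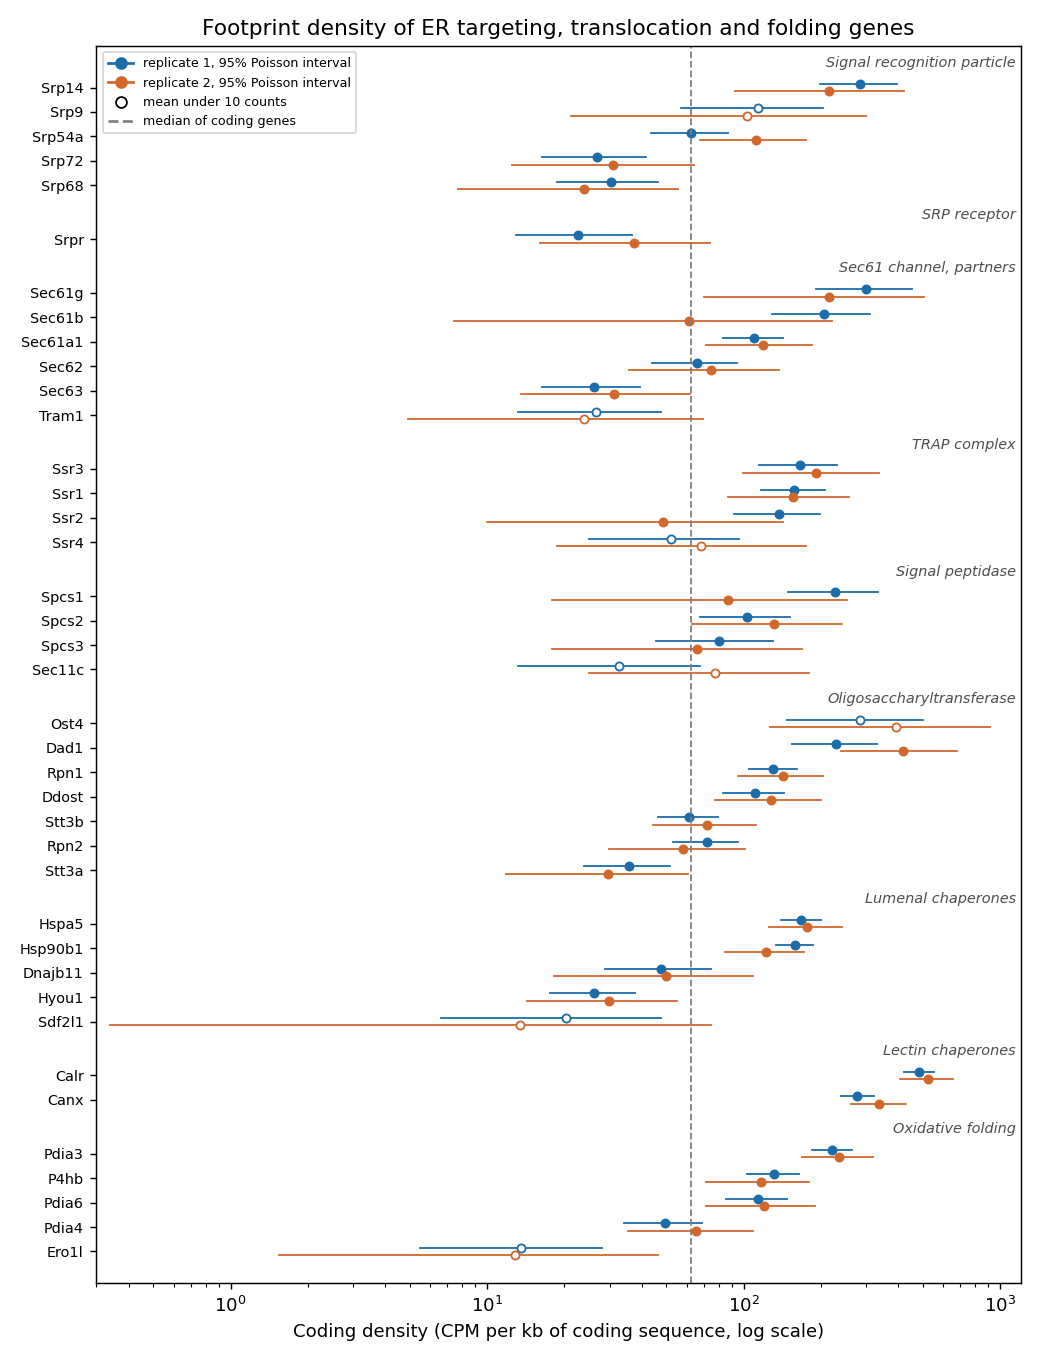
Coding density in CPM per kb of coding sequence (log scale) of the 39 genes whose representative transcript is coding, by functional group. Blue points are replicate 1 and orange points replicate 2 with 95% Poisson intervals, open points mark genes with a mean under 10 counts, and the dashed line is the median of coding genes at 62.3. Calr, at 483 and 521, is the highest filled point in both libraries.

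Among the proteins of the signal recognition particle, Srp14 had the highest density. Srp14, which with Srp9 binds the part of the particle's RNA that slows elongation, had 35 and 8 counts in replicates 1 and 2, or 285 CPM per kb (95% Poisson interval 198 to 396) and 215 (92.6 to 423). Srp9 had 11 and 3 counts, under the minimum, or 114 and 103 CPM per kb. The Srp9 to Srp14 ratio was 0.401 in replicate 1 (exact 95% interval 0.184 to 0.808) and 0.478 in replicate 2 (0.082 to 1.99), so the lower density of Srp9 exceeded counting error in replicate 1 only. On whole transcript lengths the ratio was 0.183 (0.084 to 0.370) and 0.219 (0.037 to 0.912), and its interval excluded 1 in both libraries. Srp54a, the GTPase that holds the signal sequence, had 35 and 19 counts, or 62.6 (43.6 to 87.1) and 112 (67.4 to 175) CPM per kb. The value of Srp54a is uncertain, because its near-identical paralog Srp54b, with an equal coding length of 1515 nucleotides, had 44 and 20 counts and the genes may share fragments.

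The large scaffold pair of the particle lay low and close together. Srp68 had 21 and 5 counts, or 30.3 (18.8 to 46.3) and 23.8 (7.72 to 55.5) CPM per kb, and Srp72 had 20 and 7 counts, or 26.9 (16.4 to 41.5) and 31.0 (12.5 to 63.9). The ratio of Srp68 to Srp72, which bind each other, was 1.13 in replicate 1 (0.581 to 2.19) and 0.767 in replicate 2 (0.192 to 2.81), and a difference of up to about these bounds could not be detected at this depth. Srp19, which helps to assemble the particle, had 5 counts and 1 count on a processed transcript, and its coding transcript of 435 nucleotides had 4 and 0.

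The SRP receptor had few footprints. Srpr, its GTPase subunit that faces the particle, had 16 and 8 counts, or 22.7 (12.97 to 36.8) and 37.4 (16.1 to 73.7) CPM per kb. Srprb, the membrane-anchored subunit, had 9 and 5 counts on a retained-intron transcript and 9 and 3 on its coding transcript. On the transcripts with the longest coding sequence the ratio of Srpr to Srprb was 0.754 (0.314 to 1.93) and 1.13 (0.271 to 6.61), with no difference beyond counting error in either library.

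The Sec61 channel consists of a pore-forming subunit, Sec61a1, and the small single-span subunits Sec61b and Sec61g. Sec61a1 had 58 and 19 counts, or 109.8 (83.4 to 142) and 119 (71.4 to 185) CPM per kb, nearly the same in both libraries. Sec61g had 23 and 5 counts over a coding sequence of 207 nucleotides, or 301 (191 to 452) and 216 (70.0 to 503) CPM per kb. The ratio of Sec61a1 to Sec61g was 0.365 in replicate 1 (0.222 to 0.620) and 0.550 in replicate 2 (0.199 to 1.88). Sec61b had 22 and 2 counts, or 205 (128 to 310) and 61.4 (7.43 to 222) CPM per kb, the largest log2 ratio between libraries, in size, among the 32 genes. The ratio of Sec61a1 to Sec61b lay on different sides of 1, at 0.536 (0.323 to 0.920) and 1.93 (0.466 to 17.1), and their order was not resolved.

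Sec62 and Sec63 form a complex with the channel that serves proteins arriving after synthesis, and Sec63 recruits Hspa5. Sec62 had 29 and 10 counts, or 65.7 (44.0 to 94.3) and 74.6 (35.8 to 137) CPM per kb, and Sec63 had 22 and 8, or 26.1 (16.4 to 39.5) and 31.3 (13.5 to 61.7). The ratio of Sec63 to Sec62 was 0.398 in replicate 1 (0.218 to 0.717) and 0.419 in replicate 2 (0.144 to 1.18), below 1 in both but beyond counting error only in replicate 1. With the isoforms of each gene summed it was 0.885 (0.561 to 1.42) and 1.05 (0.504 to 2.30), so neither the difference nor its direction held under that choice. Tram1, a membrane protein beside the channel, had 11 and 3 counts, under the minimum.

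In the translocon-associated protein complex (TRAP), which aids the insertion of some signal sequences, Ssr1 and Ssr3 were steady between libraries. Ssr1 had 50 and 15 counts, or 157 (117 to 207) and 156 (87.1 to 257) CPM per kb, and Ssr3 had 34 and 12, or 165 (114 to 231) and 192 (99.2 to 335). Ssr2 had 28 and 3 counts, or 137 (91.3 to 199) and 48.5 (10.01 to 142) CPM per kb. Ssr4 had 10 and 4 counts and fell under the minimum. The intervals of Ssr1, Ssr2 and Ssr3 overlapped within each library, which is not a test. Their ratios were not among the fixed pairs, so their order was not tested.

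On the representative transcripts, where Sec11a had no coding density, signal peptidase had its highest densities in the accessory subunits. Spcs1 had 26 and 3 counts, or 228 (149 to 334) and 86.7 (17.9 to 253) CPM per kb. Spcs2 had 26 and 10 counts, or 103 (67.6 to 152) and 131 (62.9 to 241), and the ratio of Spcs2 to Spcs1 was 0.454 (0.253 to 0.813) in the deeper library and 1.51 (0.389 to 8.55) in the other. On the longest coding isoforms it was 0.977 (0.520 to 1.87) and 0.892 (0.317 to 2.60), and with isoforms summed 0.138 (0.087 to 0.212) and 0.246 (0.107 to 0.519), so the order of this pair depended on the isoforms used. A pseudogene named Spcs2-ps had 9 and 2 counts, and whether it shares fragments with Spcs2 was not tested. Spcs3 had 16 and 4 counts, or 79.9 (45.6 to 130) and 65.8 (17.9 to 168) CPM per kb. The catalytic subunits Sec11a and Sec11c were both under the minimum, with 13 and 2 counts for Sec11a on a processed transcript and 7 and 5 for Sec11c. On the transcripts with the longest coding sequence the ratio of Sec11a to Sec11c was 1.00 (0.332 to 3.16) and 0.311 (0.030 to 1.90), which does not order them. With isoforms summed it was 1.79 (1.18 to 2.78) and 0.732 (0.346 to 1.54), beyond counting error in replicate 1 only. On those sums Sec11a had 136 and 98.6 CPM per kb and Sec11c 75.8 and 135. Both lay above Spcs2, which has 1 annotated transcript, at 50.8 and 67.3, and below Spcs1 at 367 and 274.

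Oligosaccharyltransferase transfers the sugar chain to asparagine and comes in forms built on either catalytic subunit, Stt3a or Stt3b. Stt3b had 56 and 20 counts, or 61.4 (46.4 to 79.7) and 72.2 (44.1 to 112) CPM per kb. Stt3a had 28 and 7 counts, or 35.8 (23.8 to 51.8) and 29.5 (11.9 to 60.8). The ratio of Stt3a to Stt3b was 0.584 in replicate 1 (0.357 to 0.934) and 0.408 in replicate 2 (0.146 to 1.01), so Stt3a was lower in both libraries and beyond counting error in replicate 1. On whole transcript lengths the ratio was 0.358 (0.219 to 0.572) and 0.250 (0.089 to 0.616), beyond counting error in both. With the isoforms of each gene summed it was 0.855 (0.557 to 1.30) and 0.525 (0.211 to 1.21), beyond counting error in neither.

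The shared subunits of the same complex were compared with this catalytic pair. Rpn1 had 88 and 29 counts, or 130.5 (105 to 161) and 142 (94.9 to 204) CPM per kb, and Ddost had 54 and 19, or 110.4 (82.9 to 144) and 128 (77.0 to 200). Their ratio was 1.18 (0.833 to 1.69) and 1.11 (0.600 to 2.09), with no difference beyond counting error. Stt3a and Stt3b summed to 97.2 and 102 CPM per kb, which was 0.745 and 0.718 times the density of Rpn1. The sum was 0.881 and 0.795 times that of Ddost, but 1.35 and 1.75 times that of Rpn2. No interval was computed for the sum, and its dependence on the isoforms used was not tested. Rpn2 lay lower, with 49 and 12 counts, or 71.9 (53.2 to 95) and 58.0 (30.0 to 101) CPM per kb. The ratio of Rpn1 to Rpn2 was 1.82 (1.27 to 2.63) and 2.44 (1.21 to 5.26), beyond counting error in both libraries. That difference depended on the processing. On whole transcript lengths the ratio was 1.29 (0.901 to 1.87) and 1.74 (0.861 to 3.74), and with isoforms summed it turned, beyond counting error in both libraries, to 0.433 (0.334 to 0.558) and 0.568 (0.348 to 0.909), so the order of Rpn1 and Rpn2 was not settled. The small subunit Dad1 had 29 and 16 counts, or 230 (154 to 330) and 418 (239 to 678) CPM per kb, the highest mean of the complex among genes past the minimum. Ost4, whose coding sequence of 114 nucleotides is the shortest of the list, had 12 and 5 counts.

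The lumenal chaperones were led by the ER forms of Hsp70 and Hsp90. Hspa5 (BiP), which binds unfolded chains and gates the channel, had 122 and 39 counts, or 168 (140 to 201) and 177 (126 to 242) CPM per kb, higher than 79.3% of coding genes. Hsp90b1 (Grp94), which finishes the folding of a narrower set of clients, had 141 and 33 counts, or 159 (134 to 187) and 122 (84.2 to 172) CPM per kb. Their intervals overlapped in each library. The Hspa5 partners were lower. Hyou1, a nucleotide exchange factor for Hspa5, had 29 and 10 counts, or 26.2 (17.5 to 37.6) and 29.8 (14.3 to 54.7) CPM per kb. Dnajb11, a co-chaperone that delivers clients to Hspa5, had 19 and 6 counts, or 47.8 (28.8 to 74.7) and 49.7 (18.3 to 108). Sdf2l1, which works with Dnajb11, had 5 counts and 1 count, the lowest sum of the list together with Srp19.

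Calr and Canx, the lectins that hold glycoproteins in the folding cycle, had the most footprints of the 42 genes, and Calr also had the highest density. Canx came below Dad1 and the little-covered Ost4 in mean density. Calreticulin (Calr), the soluble lectin, had 223 and 73 counts, or 483 (422 to 551) and 521 (408 to 655) CPM per kb, higher than 94.2% of coding genes. A pseudogene named Calr-ps had 12 and 6 counts, and its part in the counts of Calr was not tested. Calnexin (Canx), the membrane-bound lectin, had 182 and 67 counts, or 278 (239 to 321) and 337 (261 to 428) CPM per kb. The ratio of Canx to Calr was 0.575 in replicate 1 (0.470 to 0.702) and 0.646 in replicate 2 (0.457 to 0.913), so Calr exceeded Canx beyond counting error in both libraries.

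In oxidative folding, Pdia3 (ERp57), the disulfide isomerase that works with the lectins, stood above the general isomerase P4hb (PDI). Pdia3 had 124 and 40 counts, or 221 (184 to 264) and 235 (168 to 320) CPM per kb, and P4hb had 74 and 20, or 131 (103 to 165) and 117 (71.3 to 180). The ratio of Pdia3 to P4hb was 1.69 (1.26 to 2.28) and 2.02 (1.15 to 3.64), beyond counting error in both libraries. Pdia6 had 56 and 18 counts, or 113 (85.7 to 147) and 120.1 (71.2 to 190) CPM per kb, and Pdia4 had 35 and 14, or 49.2 (34.3 to 68.5) and 64.9 (35.5 to 109). The ratio of Pdia6 to Pdia4 was 2.30 (1.48 to 3.62) and 1.85 (0.870 to 4.02), beyond counting error in replicate 1. Ero1l, the oxidase that recharges the isomerases, had 7 and 2 counts and the lowest mean density of the 39 genes with a coding representative, 13.6 (5.47 to 28.0) and 12.8 (1.55 to 46.2) CPM per kb.

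Densities of folding genes were also set beside the ER stress element shown above. The 5 folding genes with the element had mean densities of 502 CPM per kb (Calr), 307 (Canx), 172 (Hspa5), 140.5 (Hsp90b1) and 117 (Pdia6). The 6 with a window and no exact match were Pdia3 at 228, P4hb at 124, Pdia4 at 57.1, Dnajb11 at 48.8, Sdf2l1 at 16.9 and Ero1l at 13.2. The ranges overlap, since Pdia3 and P4hb without a match lay above Pdia6 with one. Hyou1, at 28.0 CPM per kb, had no window in the table.

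The ER chaperones have close relatives in the cytosol and in mitochondria, which allowed compartments to be compared within each library. Hspa8, the constitutive cytosolic Hsp70, had 503 and 138 counts, or 702 and 635 CPM per kb. The ratio of Hspa5 to Hspa8 was 0.239 (0.195 to 0.292) and 0.279 (0.190 to 0.4002). Hsp90ab1, a cytosolic Hsp90, had 564 and 224 counts, or 703 and 920 CPM per kb, while the other cytosolic form, Hsp90aa1, had 338 and 96 counts, or 416 and 389 CPM per kb. The ratio of Hsp90b1 to Hsp90ab1 was 0.226 (0.186 to 0.272) and 0.133 (0.089 to 0.192). Hsp90ab1 was itself called higher in replicate 2 (log2 ratio 0.39, adjusted p 0.0236 by the exact binomial test), though not by the edgeR exact test with a preset coefficient of variation. Hspa4, a cytosolic exchange factor related to Hyou1, had 93 and 39 counts, and the ratio of Hyou1 to Hspa4 was 0.263 (0.167 to 0.403) and 0.216 (0.096 to 0.441). With isoforms summed this ratio was nearer to 1, at 0.600 (0.476 to 0.755) and 0.617 (0.423 to 0.895). In these 3 pairs the ER form was lower beyond counting error in both libraries. The values of the cytosolic genes are uncertain where their processed pseudogenes share fragments with them.

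Against the mitochondrial relatives the ER forms lay above. The ratio of Hspa5 to Hspa9 was 1.66 in replicate 1 (1.24 to 2.25) and 1.39 in replicate 2 (0.840 to 2.34). The ratio of Hsp90b1 to Trap1 was 5.17 (3.34 to 8.34) and 1.53 (0.844 to 2.85), where Trap1 had 24 and 19 counts and Hsp90b1 141 and 33. Both exceeded counting error in replicate 1 only. The ratio of Hyou1 to Hsph1, a further cytosolic exchange factor, was 0.498 (0.304 to 0.803) and 0.661 (0.259 to 1.63), likewise beyond counting error in replicate 1 only. Of the 20 pairs fixed for comparison, 18 had coding representatives, and 6 of the 18 differed beyond counting error in the same direction in both libraries, Rpn1 and Rpn2 among them.

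**Figure D2:**
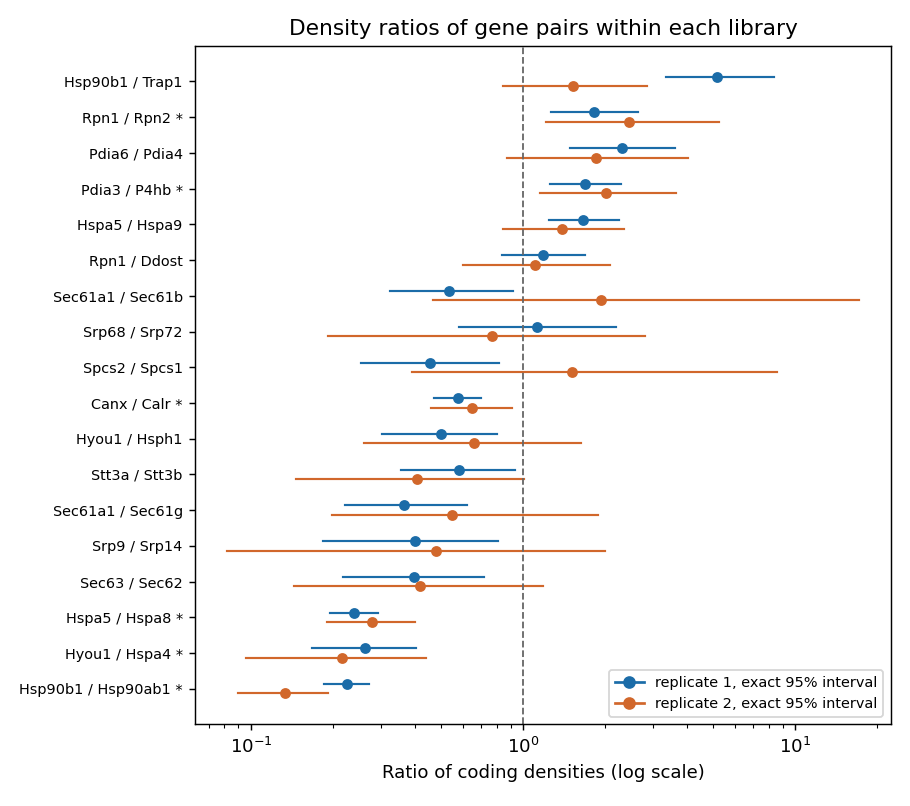
Ratio of the coding densities of 2 genes within a library (log scale), for the 18 pairs with coding representatives. Points are the ratios in replicate 1 (blue) and replicate 2 (orange) with exact 95% binomial intervals, the dashed line marks a ratio of 1, and an asterisk marks the 6 pairs whose intervals leave out 1 on the same side in both libraries. Hspa5, Hsp90b1 and Hyou1 lie left of the line against Hspa8, Hsp90ab1 and Hspa4.

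With a single group, the test that remained was whether a gene's counts differed between the libraries beyond counting noise. An exact binomial test at the ratio of the TMM library sizes, with Benjamini-Hochberg adjustment over the 5436 genes past the minimum, called 0 of the 32 genes, against 4.14% of all genes tested (3.99% higher and 0.147% lower in replicate 2) and 0.956% of the 4392 coding genes among them. At an unadjusted exact binomial p under 0.05 the number was also 0, against 9.6% of all genes. The edgeR exact test with a coefficient of variation preset at 0.2, not estimated here, called 0 as well, against 2.41% of all genes. The test compares the reads of these libraries, not conditions, and it shows only that no difference was detectable at this depth.

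The log2 ratio of replicate 2 over replicate 1, taken on log2(CPM + 1), had a median of 0.098 over the 32 genes and 0.0041 over all genes tested. Of the 32, 20 were above 0, beside 48.9% of the 4294 coding genes past the minimum with a coding length. Whether the 32 genes differ from those coding genes in this was not tested. The highest ratios were those of Dad1, at 0.85 (counting SE 0.45), and Srp54a, at 0.83 (SE 0.41). Srp54a had the smallest unadjusted exact binomial p of the 32, 0.0516, with an adjusted p of 0.531. The lowest ratios belonged to Sec61b at -1.68 (SE 1.07), Ssr2 at -1.47 (SE 0.88) and Spcs1 at -1.36 (SE 0.88), which had 2, 3 and 3 counts in replicate 2. The folding genes with over 100 counts in replicate 1 had ratios of 0.11 for Calr (SE 0.19), 0.28 for Canx (SE 0.21) and 0.088 for Pdia3 (SE 0.26). Those of Hspa5 and Hsp90b1 were 0.075 (SE 0.27) and -0.37 (SE 0.28).

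**Figure D3:**
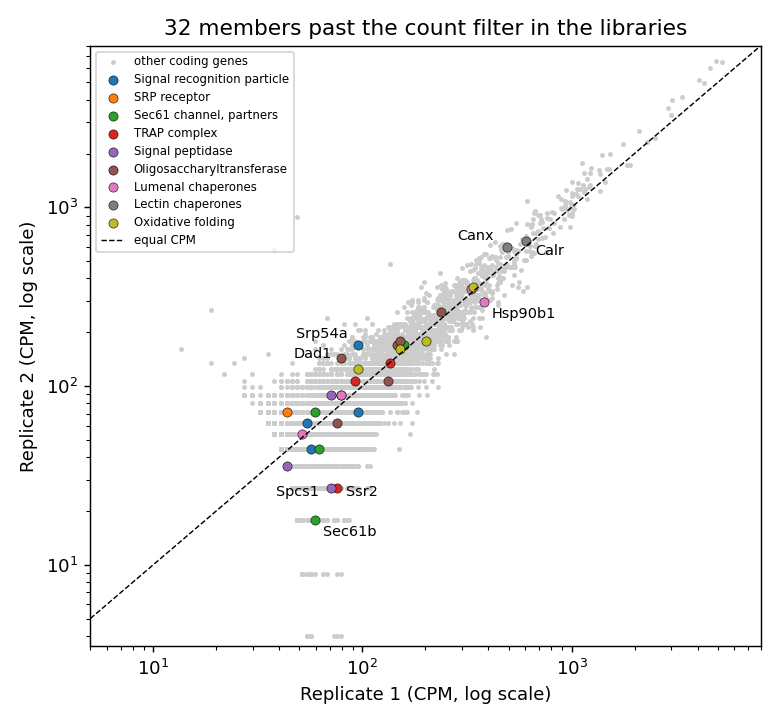
CPM in replicate 1 against replicate 2 (both log scales) for the 32 genes past the minimum, coloured by functional group, over the other coding genes in grey. Grey points with 0 counts in replicate 2 are drawn at the lower edge, and the dashed line is equal CPM. Calr and Canx lie near the line at the upper right, while Sec61b, Ssr2 and Spcs1 lie below it among genes of few counts.

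Isoforms with longer untranslated regions did not have more counts in sum. Of the 42 genes, 8 had coding isoforms of equal coding length, each with at least 20 counts in sum and with different untranslated regions. Summed over the 8, the shorter isoforms had 447 and 143 counts and the longer ones 428 and 143, although the longer ones had a median of 982.5 additional nucleotides. The isoforms of a gene may share fragments, so these counts are not taken as independent. For Dad1, whose long isoform adds 2613 nucleotides in all, the counts were 32 and 12 on the short and 29 and 16 on the long form. For Hspa5 they were 122 and 39 on the short form and 122 and 35 on the form with 1059 more nucleotides. Of the 42 genes, 10 had a single annotated transcript and the most, Rpn2, had 11, and for Srp19, Srprb and Sec11a the transcript with the most counts was not a coding one.

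Density fell with coding length across the list. Across the 32 genes Spearman's rho between mean coding density and coding length was -0.55, beside -0.78 across the 4294 coding genes past the same minimum. Across the 39 genes with a coding representative and no minimum it was -0.39, a value without a counterpart over all coding genes here. These are descriptions over genes of the same libraries. The minimum on counts itself removes short genes of low density, and its part in the relation was not tested. Density is also divided by coding length, which by itself favours a negative rho. The shortest of the 32, Sec61g with 207 nucleotides, had 258 CPM per kb, and the longest, Hyou1 with 3000, had 28.0.

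**Figure D4:**
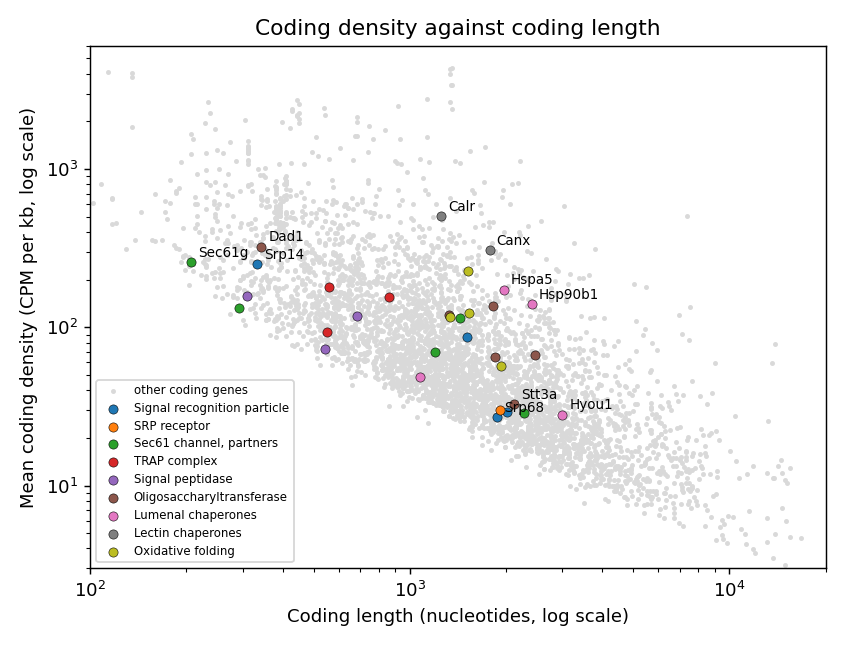
Mean coding density (CPM per kb, log scale) against coding length (nucleotides, log scale) for the 32 genes past the minimum, coloured by functional group, over the other coding genes in grey. The straight lower edge of the grey cloud is the minimum of 10 counts on average. Sec61g, at 258 CPM per kb, lies at the left of the coloured points and Hyou1, at 28.0, at the right, with Calr highest at 502.

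Other genes of the pathway were taken from lists fixed by function, 129 of whose 132 names were in the table. Of these, 61 passed the minimum. After Benjamini-Hochberg adjustment the exact binomial test between libraries called 0 of the 61, against 4.14% of all genes tested and 0.956% of the coding genes among them. At an unadjusted exact binomial p under 0.05 there were 5 of the 61 (Tusc3, Mogs, Ube2j1, Nploc4 and Syvn1), against 9.6% of all genes tested. The edgeR exact test with the preset coefficient of variation also called none of these 5. Their median coding density was 72.6 CPM per kb, against 117 for the 32 members and 62.3 for coding genes. Among other targeting and insertion genes, 16 of 22 passed the minimum, with a median of 81.2 CPM per kb. The highest was Emc4, a subunit of the ER membrane protein complex, at 163 ± 21.7 (SD, n = 2). Sgta, which takes part in the route of tail-anchored proteins to the membrane, stood at 160.3 ± 40.2. Mmgt1, another subunit of the ER membrane protein complex, stood at 121 ± 12.2. Sec61a2, the paralog of the pore subunit, had 19 counts in replicate 1 and 0 in replicate 2, against 58 and 19 for Sec61a1.

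Of the other glycosylation genes, 10 of 29 passed the minimum, with a median of 97.4 CPM per kb. Alg2, a mannosyltransferase of the sugar chain precursor, stood at 266 ± 11.3 CPM per kb (SD, n = 2), Tusc3, an oxidoreductase subunit of the Stt3b form of oligosaccharyltransferase, at 259 ± 88.5, and Tmem258, a small subunit of that enzyme, at 219 ± 6.15. Of the other folding genes, 18 of 43 passed, with a median of 94.3 CPM per kb. Ppib, a prolyl isomerase of the ER, stood at 235 ± 80.0, Tmx4, a membrane-bound thioredoxin relative, at 179 ± 2.09, and Kdelr2, a receptor that returns escaped chaperones, at 163 ± 33.1 CPM per kb (each SD, n = 2).

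The genes of the unfolded protein response and of ER-associated degradation had the lowest median of these lists, 48.2 CPM per kb over the 16 with a coding representative of the 17 that passed, out of 35. Vcp, the ATPase that extracts proteins for degradation and also works elsewhere in the cell, was the highest at 227 ± 12.6 CPM per kb, followed by Derl1 at 96.7 ± 30.3 and Os9 at 79.5 ± 3.39 (each SD, n = 2), which take part in recognising and exporting misfolded proteins. The stress sensors Eif2ak3, Ern1 and Atf6 had 1 and 4, 1 and 2, and 5 and 2 counts, all under the minimum. Atf6b, a paralog of Atf6, passed it with 35 and 4 counts. Among transcription factors of the response there were 16 and 7 counts for Xbp1, 24 and 7 for Atf4, and 1 and 0 for Ddit3.

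**Figure D5:**
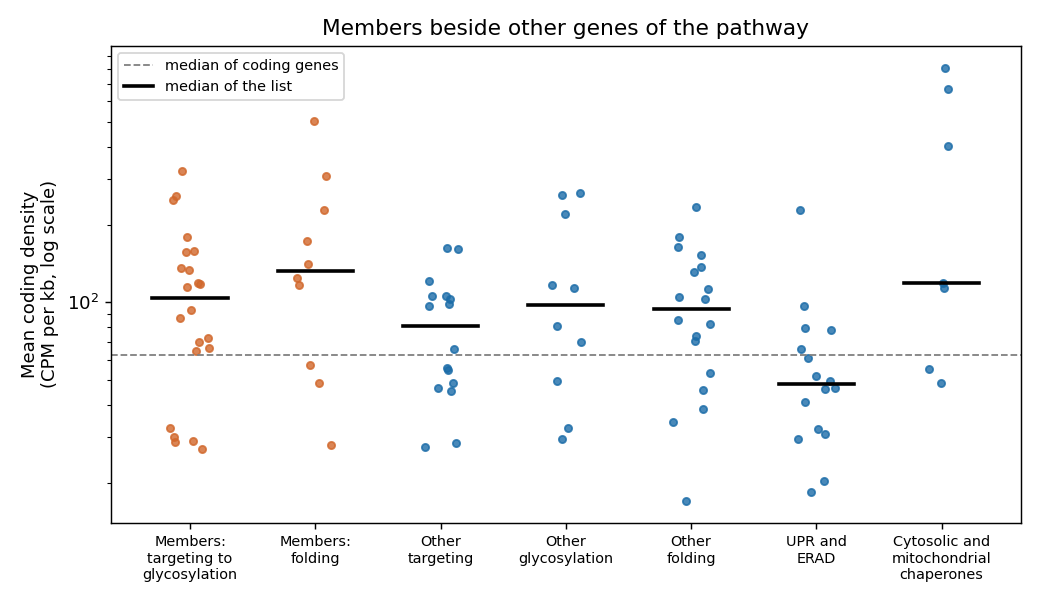
Mean coding density (CPM per kb, log scale) of single genes past the minimum in the member lists (orange) and in other lists (blue), with the median of each list as a bar and the median of coding genes as a dashed line. The folding members have a median of 132 over 10 genes and the unfolded protein response and degradation list 48.2 over 16. Hsp90ab1 and Hspa8 are the highest points of the cytosolic and mitochondrial list.

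The signal recognition particle also holds an RNA, 7SL, and its genes were higher in replicate 2. Rn7s1 had 53 counts in replicate 1 and 174 in replicate 2, and Rn7s2 had 55 and 187, or log2 ratios of 3.43 and 3.48. The adjusted p of the exact binomial test was 2.03e-61 for Rn7s1 and 5.20e-67 for Rn7s2. By the edgeR exact test with the preset coefficient of variation it was 5.49e-09 and 2.73e-09. Of all 5436 genes tested, the binomial test called 3.99% higher in replicate 2. Among the 4392 coding genes it called 0.956% in either direction, so calls were more frequent outside the coding genes. The near-identical copies may share fragments and are not taken as independent. Of the 4 particle proteins past the minimum, Srp14, Srp54a, Srp68 and Srp72, none was called, with log2 ratios from -0.40 to 0.83. The difference between the RNA and the protein genes was not tested.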

How the data were processed

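Ribosome-protected fragments were measured in 2 RiboLace libraries of 1 group. The authors deposited whole-number counts per transcript, not normalised, with the lengths of each transcript and its coding and untranslated regions. Trimmomatic 0.36, Bowtie2 2.2.6, SAMtools and the build GRCm38.p4 are named, per the submitters' processing notes. The counting tool and any filter are not given in the sources used here. Column sums were 729027 and 225075, and 343552 and 120282 after keeping, for each gene, the transcript with the highest summed count (the longer in a tie). Some isoforms and near-identical genes carry nearly equal counts, which sums over isoforms would count repeatedly, while others differ widely, and how the authors assigned a fragment that matches several transcripts is not given in the sources used here. No further column of counts was found in the table.

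CPM used edgeR 4.0.16 TMM factors (1.07 and 0.931) over genes averaging 10 counts or more. With no second condition and no residual degrees of freedom, edgeR's quasi-likelihood test could not be run, and a 2-sided exact binomial test compared the libraries, with Benjamini-Hochberg adjustment over all tested genes at 0.05. It was tested on simulated data that held counting noise only, which cannot show how it behaves with other variation between libraries. Density intervals are exact Poisson, and ratio intervals come from the exact binomial (Clopper-Pearson) interval of a pair's counts, each at 95%. Promoter windows are RefSeq's. All 42 gene identifiers were in the name table with the same symbol. Protein features were planned and are not analysed here. The members and lists were chosen with earlier results of these data known. Values are given for all members, for the fixed pairs, and for the 3 densest genes past the minimum of each other list. Sec61a2, Atf6b, the 5 genes at an unadjusted p under 0.05, the stress sensors and their targets were named after their values were seen. Alternatives were summed isoforms, the longest coding isoform, coding genes alone, other count minimums, library totals, DESeq2 1.42.0 size factors, a pseudocount of 0.1 in place of 1, whole transcript length, a preset coefficient of variation, and each replicate alone.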

Additional observations from a re-analysis of the deposited data

How the results depend on the processing

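No paired analysis was possible because the series holds a single group. The test between libraries and the median log2 ratio need both replicates and gave no value without 1 of them. The test called 0 members under every alternative run except summed isoforms, where it called 1, Ssr2, with 130 and 16 summed counts, which is 1 of 40 members beside 605 of 8366 genes; a sum can count a fragment once for each isoform. The members' median log2 ratio of 0.098, beside 0.0041 over all genes tested, was -0.11 with library totals, beside -0.20. Without the count minimum it was -0.098, beside -0.043 over all genes tested. No member was called in either. The members' share of 0.517% was 0.568% with isoforms summed and 0.669% of coding counts alone. The 32 members past the minimum became 6 at a mean minimum of 50, and 20 to 37 on single replicates. Their median density of 117 CPM per kb became 96.3 with isoforms summed, 152 among coding genes alone, 109.0 without the minimum, 200.3 at a mean of 50 and 47.1 on whole transcript length; on single replicates it was 112 to 125. At a mean of 50 the coding genes' median was 313, above that of the 6 members, while in the other alternatives over both replicates the members' median was the higher. The 6 pairs that differed became 13 with isoforms summed, and 6 to 16 on single replicates, where replicate 2 gave 6 and replicate 1 gave 16. The ratio of Rpn1 to Rpn2 reversed to 0.496 with isoforms summed, beyond counting error in both libraries, where Rpn2 has 11 isoforms and Rpn1 has 1. With isoforms summed, the mean ratio of the libraries moved by over 1.5 times for other pairs too: from 0.258 to 0.155 for Hspa5 to Hspa8, 1.52 to 3.08 for Hspa5 to Hspa9, 2.81 to 4.94 for Hsp90b1 to Trap1, 0.238 to 0.609 for Hyou1 to Hspa4, 0.408 to 0.963 for Sec63 to Sec62, 2.06 to 4.69 for Pdia6 to Pdia4 and 0.828 to 0.185 for Spcs2 to Spcs1. On whole transcript length it moved from 0.438 to 0.2004 for Srp9 to Srp14, 0.448 to 0.679 for Sec61a1 to Sec61g, 0.488 to 0.299 for Stt3a to Stt3b and 0.828 to 0.455 for Spcs2 to Spcs1. That of Sec61a1 to Sec61b, 1.02 over both libraries, was 0.536 in replicate 1 and 1.93 in replicate 2. For Sec61a1 to Sec61g the longest coding isoform gave no mean ratio, since Sec61g then had 0 counts in replicate 2. Where no cause is given, the cause was not tested.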
